A study of Mus musculus with 18 samples.

Results

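A set of 10 genes that mark the pluripotent state of embryonic stem (ES) cells was followed through sorted cells of differentiating ES cell cultures. They are Pou5f1, Nanog, Esrrb, Klf4, Zfp42, Utf1, Dppa4, Rhox5, Tdh and Tdgf1, which the deposited table spells POU5F1, NANOG, ESRRB, KLF4, ZFP42, UTF1, DPPA4, PEM (an older name of Rhox5), TDH and TDGF1. They were chosen by name, as 10 of the 31441 genes of that table, as a readout of cells that stayed pluripotent. The cultures came from 3 mouse ES cell lines of strain J1, each carrying a bacterial artificial chromosome in which the regulatory region of Hes5, Nurr1 or Pitx3 drives a fluorescent protein. The cultures were driven toward a midbrain dopamine neuron fate, and at days 14 to 15 cell sorting by fluorescence gave Hes5::GFP+ and Hes5::GFP-, Nurr1::GFP+ and Nurr1::GFP-, and Pitx3::YFP+ and Pitx3::YFP- cells, 6 fractions of 3 arrays each. No other allele or agent is named for any fraction, and no undifferentiated ES cell sample was analysed here, so no level below is set against that of pluripotent cells. Each reporter is a transgene in 1 named line, and nothing in the labels says whether the 3 replicates of a fraction were separate differentiations. The cell type given for all arrays is mESC, the cell the cultures started from. Of 8 neuronal genes tested, 7 or 8 were above background in every array.

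Pluripotency in ES cells rests on a circuit of transcription factors, centred on Oct4 (the protein of Pou5f1), Sox2 and Nanog, that activate their own genes and each other's. Esrrb and Klf4 feed into this circuit, and genes such as Zfp42, Utf1, Dppa4, Rhox5, Tdh and Tdgf1 are expressed with it in ES cells. In cultures meant to yield neurons, cells that keep the circuit on are watched because they can form tumours after grafting.

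The letters that these factors bind were looked for just upstream of the genes. Oct4 binds the octamer ATGCAAAT, and with Sox2 it binds a composite of a Sox core, CATTGT, next to the octamer core ATGCAAA. They were searched on both strands of the 250 bases before each start in RefSeq's promoter table (mouse build GRCm38.p6). It held 11 windows for 8 of the 10 genes, and Dppa4 and Tdh had none. Pou5f1, Nanog and Esrrb each had a second window that does not lie at the gene start. That of Pou5f1 held a Sox core, 158 bases before its own start, and no octamer core. The composite CATTGTNATGCAAA was chosen knowing the published Nanog element and was found in 2 of 32851 windows, which are both overlapping windows of Nanog. The octamer core alone was in 4.12% of windows, the full octamer in 1.6% and the Sox core in 10.7%. The windows of Nanog (chr6:122707239-122707488, plus strand), Zfp42 (chr8:43307010-43307259, minus strand) and Pou5f1 (chr17:35505782-35506031, plus strand) are shown because they hold the composite, an octamer and neither, with the matched letters in capitals (the first base of Zfp42's octamer precedes its capitals).
Nanog: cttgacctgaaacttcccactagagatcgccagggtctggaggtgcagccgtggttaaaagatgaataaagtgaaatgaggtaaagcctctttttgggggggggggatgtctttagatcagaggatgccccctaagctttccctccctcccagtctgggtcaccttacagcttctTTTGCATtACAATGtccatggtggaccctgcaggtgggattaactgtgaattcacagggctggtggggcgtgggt
Zfp42: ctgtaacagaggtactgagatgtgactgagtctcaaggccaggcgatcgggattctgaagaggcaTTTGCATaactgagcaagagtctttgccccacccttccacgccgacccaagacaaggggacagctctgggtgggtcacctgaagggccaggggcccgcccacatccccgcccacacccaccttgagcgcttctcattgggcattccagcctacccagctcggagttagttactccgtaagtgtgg
Pou5f1: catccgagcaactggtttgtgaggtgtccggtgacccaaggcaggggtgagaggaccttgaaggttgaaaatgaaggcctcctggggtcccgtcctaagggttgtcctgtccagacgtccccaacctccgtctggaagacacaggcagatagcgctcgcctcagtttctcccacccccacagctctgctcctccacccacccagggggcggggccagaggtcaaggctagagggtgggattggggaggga
In Nanog the match reads on the opposite strand, with the octamer core 75 bases and the Sox core 67 bases before the gene start. In Zfp42 the octamer core lies 185 bases before it. A match is a run of letters and not a measured binding site, and no binding was measured here.

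Levels below are normalized log2 intensities of 1 probe per gene, so a difference of 1 is a doubling. They are compared between arrays for the same gene and never between genes. A probe was above background in an array when its detection p-value was under 0.01. The arrays were alike in quality: the median probe intensity lay between 40.6 and 60.2, and 33.5% to 37.4% of probes were above background. Of the 10 genes, 9 were above background in at least 3 arrays and were tested, among 12657 genes in all. Positive and negative arrays of 1 line with the same number deviated together from their group means, so each sort is given by pairs. A gene was called when its Benjamini-Hochberg adjusted p in limma was under 0.05 over all genes tested. One array needs care. Hes5 negative replicate 2 is GFP-negative by its title and genotype, and its source name reads GFP+. Reporter RNA stood at 11.12 in it against 9.51 and 8.48 in Hes5 negative replicates 1 and 3, and at 13.54 to 13.73 in the Hes5-positive arrays. Its neuronal gene list had a median of 11.49, against 9.31 and 9.66 in the other 2. It was kept as negative, and results that rest on it are given with and without it. RNA came from bulk fractions, in which fewer cells of a type and less RNA per cell cannot be told apart.

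**Figure D1:**
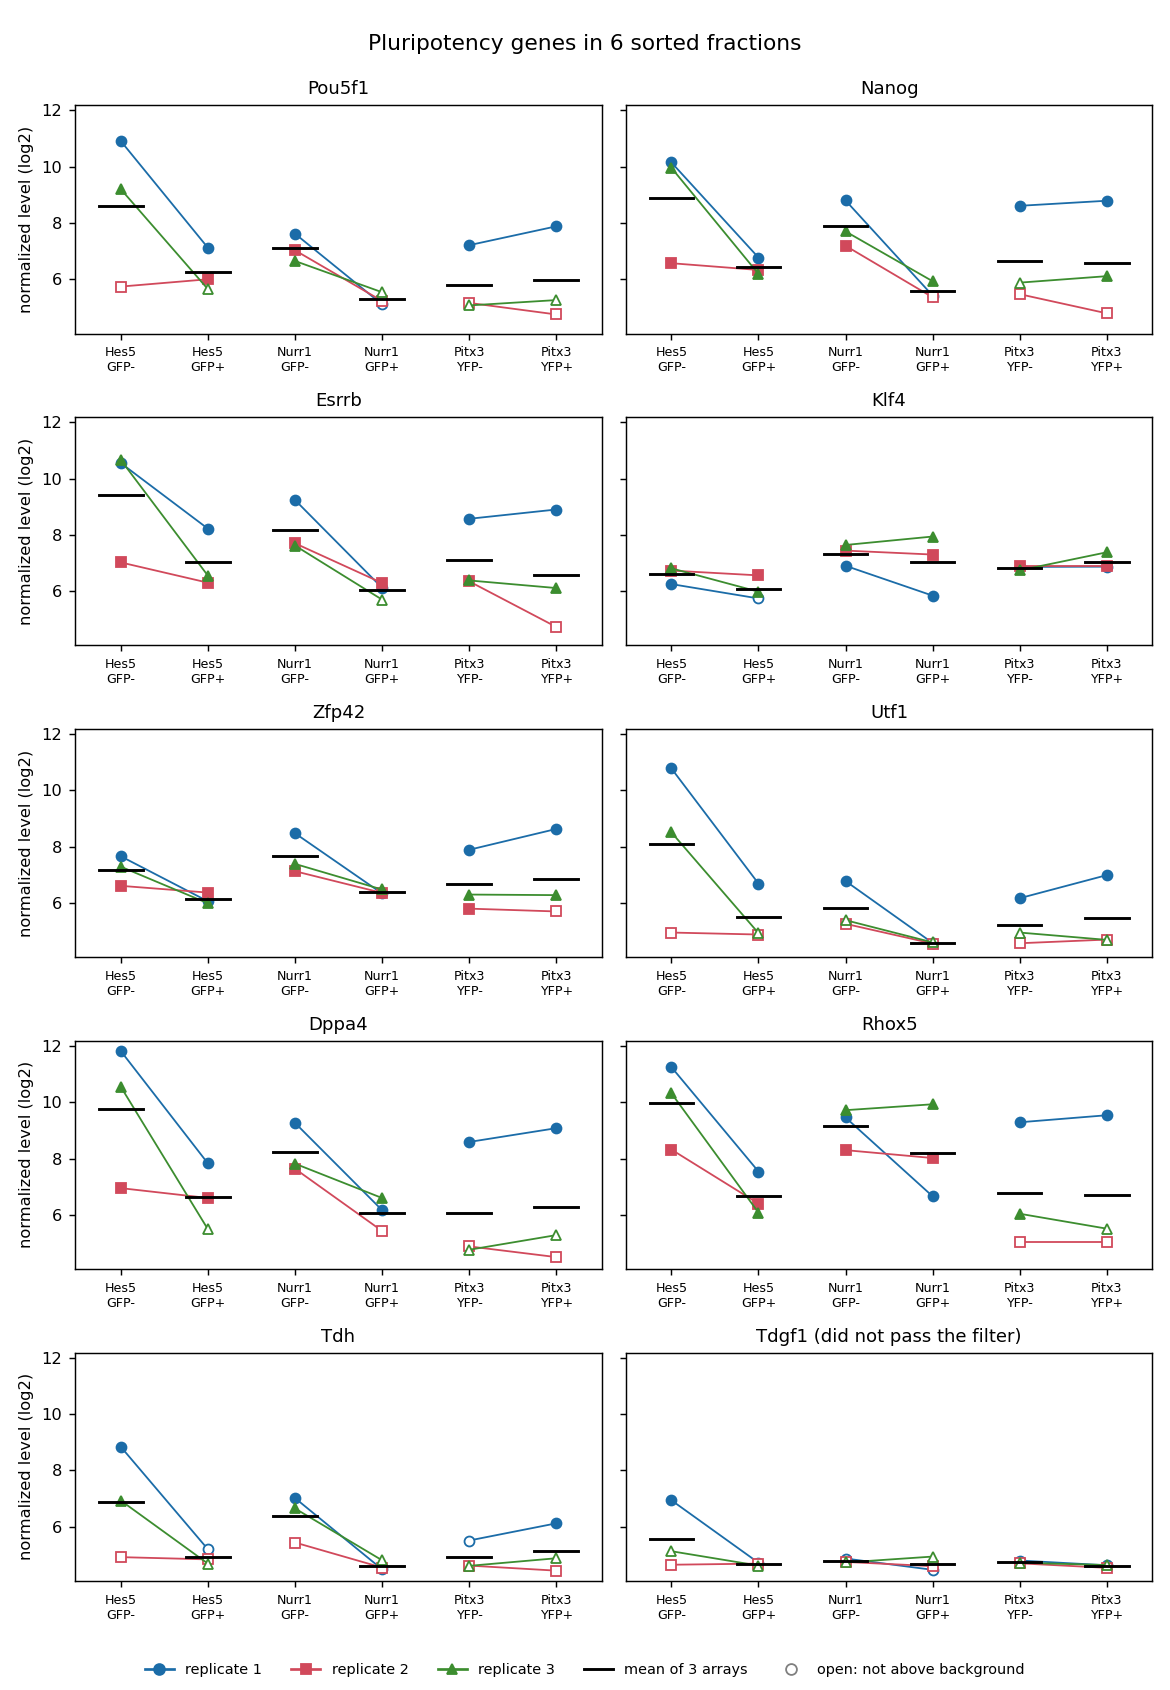
Normalized level (log2, y axis) of each of the 10 genes in the 6 sorted fractions (x axis). Points are arrays, lines join the fractions of 1 pair, black bars are means of 3 arrays, and open points were not above background. The Hes5-negative arrays 1 and 3 are the highest for Pou5f1, Utf1 and Dppa4, Hes5-negative replicate 2 lies near the Hes5-positive arrays for most genes, and Klf4 stays between 5.74 and 7.94.

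In the Hes5 line all 9 tested pluripotency genes had lower means in GFP+ than in GFP- cells, with differences from -0.50 to -3.29 on the log2 scale and a median of -2.38, while the median of all genes was 0.03. Hes5 is a Notch target that marks neural progenitors. The median difference was -3.63 in pair 1, -0.24 in pair 2 and -3.58 in pair 3. Without pairing, 0 of the 9 were called, where 0.0158% of all genes were, and 7 of the 9 had an unadjusted p under 0.05 (6.51% of all genes). With pairing, 1 of the 9, Rhox5, was called, where 1.24% of all genes were (0.616% as lower), and 8 had an unadjusted p under 0.05 (21.4% of all genes). In all, 8 were lower in all 3 pairs, as were 15.8% of all genes. For Utf1 and Tdh, counted among the 8, neither array of pair 2 was above background, so their sign in that pair was not measured.

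Pou5f1, the master regulator of the pluripotent state, stood at 10.91, 5.74 and 9.20 in Hes5-negative replicates 1 to 3 and at 7.12, 6.0 and 5.65 in Hes5-positive ones. Replicates 1 and 3 of the negative cells lay above all positive arrays and replicate 2 lay among them, so the groups overlapped. The difference was -2.36 (n = 3 pairs, SE 1.05 unpaired and 0.67 paired, adjusted p = 0.738 unpaired and 0.101 paired), a 5.13-fold lower level. Nanog, another central factor of the circuit, was at 10.15, 6.57 and 9.96 in negative and 6.77, 6.33 and 6.19 in positive cells. The pairs differed by -3.38, -0.24 and -3.77 (mean -2.46, SE 0.61 paired, paired adjusted p = 0.0782). Esrrb, an orphan nuclear receptor that Nanog activates, was at 10.55, 7.02 and 10.66 in negative and 8.22, 6.30 and 6.55 in positive cells (difference -2.38, SE 0.59 paired, paired adjusted p = 0.0805). Here too the second negative array fell within the positive range. Klf4, a zinc finger factor and one of the classical reprogramming factors, differed least, at 6.25, 6.73 and 6.81 in negative and 5.74, 6.56 and 5.98 in positive cells (-0.50, SE 0.25 paired, paired adjusted p = 0.275).

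Among the genes expressed with the circuit, Rhox5, an X-linked homeobox gene, was the one call. Its levels were 11.25, 8.32 and 10.32 in negative and 7.54, 6.4 and 6.08 in positive cells. The 2 groups did not overlap, and the pair differences were -3.70, -1.91 and -4.24 (mean -3.29, SE 0.57 paired, paired adjusted p = 0.0447, unpaired 0.656). Of the 9 genes only Rhox5 and Zfp42 had groups that did not overlap, against 4.08% of all genes with lower positive cells. Zfp42 (Rex1), a zinc finger protein used as a marker of naive ES cells, was at 7.66, 6.61 and 7.29 in negative and 6.06, 6.37 and 5.99 in positive cells (-1.05, SE 0.32 paired, paired adjusted p = 0.119). Utf1, a chromatin-bound cofactor of ES cells, was at 10.78, 4.95 and 8.51 against 6.69, 4.88 and 4.93. Utf1 was therefore above background in negative replicates 1 and 3 and not in replicate 2 (-2.58, SE 0.66 paired, paired adjusted p = 0.0853). Dppa4, a nuclear protein of pluripotent cells and early embryos, ranged from 6.95 to 11.82 in negative and from 5.49 to 7.83 in positive cells (-3.13, SE 0.74 paired, paired adjusted p = 0.0731).

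The metabolic and signalling members, Tdh and Tdgf1, were above background in 5 and 1 of the 18 arrays. Tdh, the threonine dehydrogenase on which mouse ES cells depend, was at 8.84, 4.92 and 6.93 in Hes5-negative cells and not above background in any Hes5-positive array (5.20, 4.84 and 4.69). Its mean of 6.90 against 4.91 gave a level at least 2.15-fold lower in positive cells (paired adjusted p = 0.099). Tdgf1, the Nodal co-receptor Cripto, was above background only in Hes5-negative replicate 1, at 6.94. Its other arrays lay between 4.47 and 5.14, it did not pass the filter, and it was not tested.

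Leaving out pair 2 of the Hes5 line, the pair with the conflicting label and also the one with the smallest differences, changed the calls. In the paired fit without it, 8 of the 9 genes were called lower, all but Klf4, where 8.94% of all genes were called (4.69% as lower). Pou5f1 then differed by -3.67 (SE 0.33, adjusted p = 0.00196), Utf1 by -3.83 (SE 0.38, 0.00236), Dppa4 by -4.52 (SE 0.43, 0.00236) and Nanog by -3.58 (SE 0.39, 0.00344). Rhox5 followed at -3.97 (adjusted p = 0.00994), Esrrb at -3.22 (0.0187) and Zfp42 at -1.45 (0.0387). Without pairing and without that negative array, Utf1 (-4.14, adjusted p = 0.0351) and Tdh (adjusted p = 0.0342) were called and Pou5f1 (-3.80, adjusted p = 0.0576) was not, where 0.766% of all genes were called (0.711% as lower). The call of Rhox5 with all pairs was not stable. It was kept without Hes5 pair 2 or Nurr1 pair 1 and lost without any of the other 7 pairs, with adjusted p = 0.167 without Hes5 pair 1, 0.224 without Hes5 pair 3, and 0.0558 to 0.0879 without Nurr1 pair 2 or 3 or any Pitx3 pair.

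**Figure D2:**
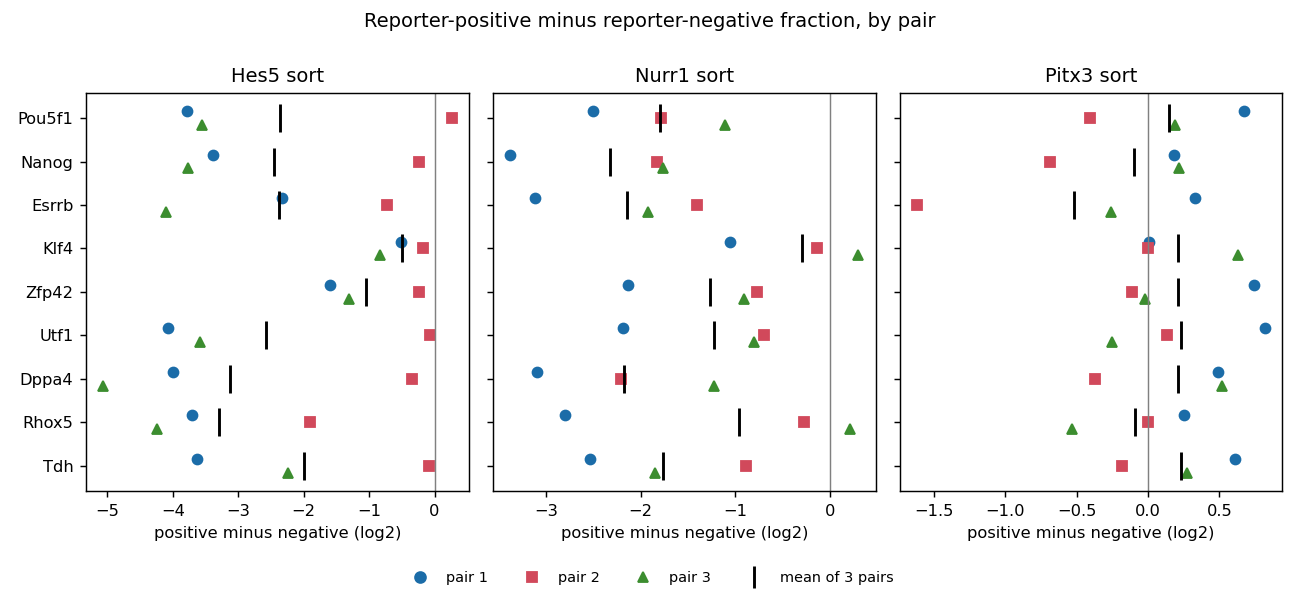
Difference in log2 level between reporter-positive and reporter-negative arrays of the same pair (x axis, scale differs between panels) for the 9 tested genes (y axis). Symbols are pairs and black ticks the mean of 3 pairs. Hes5 pair 2 lies between -0.35 and 0.26 except for Esrrb at -0.72 and Rhox5 at -1.91, the Nurr1 differences are mostly negative, and the Pitx3 differences lie on both sides of 0. For Tdh in all 3 sorts, and for Pou5f1 and Utf1 in the Nurr1 sort, 1 fraction was not above background in any array, so these differences are not measured on both sides.

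In the Nurr1 line, whose reporter marks cells on the way to dopamine neurons, the same 9 genes had lower means in GFP+ cells, and 7 of them had groups that did not overlap, as did 11.3% of all genes with lower positive cells. The median difference was -1.76, or -1.24 with 3 genes set to their bound or, without one, to 0. Of the 9, 7 were lower in all 3 pairs, as were 29.6% of all genes. Utf1, counted as not overlapping and as lower in all pairs, was above background in only 1 negative and no positive array. For Tdh, lower in all pairs too, neither array of pair 2 was above background. None of the 9 was called, unpaired (0.0237% of all genes called) or paired (0.774%, and 0.119% as lower), while 2 unpaired (8.3% of all genes) and 6 paired (24.2%) had an unadjusted p under 0.05.

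Nanog was at 8.80, 7.19 and 7.70 in Nurr1-negative and 5.42, 5.36 and 5.93 in Nurr1-positive cells. All negative arrays lay above all positive ones (-2.33, SE 0.61 paired, paired adjusted p = 0.0875, unpaired 0.586). Pou5f1 was above background in all Nurr1-negative arrays, at 7.62, 7.03 and 6.65, and in no positive one, at 5.11, 5.23 and 5.54. It was at least 2.37-fold lower in positive cells (paired adjusted p = 0.152). Esrrb was at 9.24, 7.70 and 7.62 against 6.12, 6.29 and 5.70 (-2.15, SE 0.59 paired, paired adjusted p = 0.0944). Dppa4 was at 9.27, 7.64 and 7.82 against 6.17, 5.43 and 6.60 (-2.18, SE 0.74 paired, paired adjusted p = 0.129). Zfp42 was the closest to a call, at 8.48, 7.13 and 7.39 against 6.34, 6.36 and 6.48 (-1.27, SE 0.32 paired, paired adjusted p = 0.0836). Its 3 positive arrays differed by little and lay below every negative one. Tdh (4.49, 4.55 and 4.81) and Utf1 (4.58, 4.56 and 4.6) were not above background in any Nurr1-positive array. Tdh was at least 1.43-fold lower there (paired adjusted p = 0.113), and Utf1 was above background in only 1 Nurr1-negative array, which leaves no fold.

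Rhox5 and Klf4 did not share this pattern. Rhox5 stood at 9.46, 8.30 and 9.72 in Nurr1-negative and at 6.66, 8.02 and 9.93 in Nurr1-positive cells, with pair differences of -2.80, -0.27 and 0.21 (paired adjusted p = 0.33). In positive replicate 3, where Rhox5 was at 9.93, Nanog, Dppa4, Zfp42 and Klf4 were also above background, and Pou5f1, Esrrb, Utf1 and Tdh were not. Klf4 was at 6.90, 7.44 and 7.64 against 5.84, 7.30 and 7.94 (-0.30, SE 0.25 paired, paired adjusted p = 0.475). All fits share 1 estimate of spread over the lines, and the Nurr1 result moved with the Hes5 pairs. Without Hes5 pair 2, 6 of the 9 genes were called lower in the Nurr1 sort (Nanog, Pou5f1, Dppa4, Tdh, Zfp42 and Esrrb, adjusted p = 0.0357 to 0.0489), where 3.56% of all genes were called (1.01% as lower). Without Hes5 pair 1, Tdh (0.0454) and Zfp42 (0.0474) were called, where 8.53% of all genes were (3.31% as lower).

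In the Pitx3 line, whose reporter marks postmitotic midbrain dopamine neurons, the levels of the pluripotency genes, Klf4 excepted, differed more between pairs than between the fractions of a pair. The 9 differences ran from -0.52 to 0.23 with a median of 0.21, and all 9 genes overlapped between the fractions (7.56% of all genes were lower in positive cells without overlap). None was called, unpaired (0.442% of all genes called, lowest adjusted p of the 9 0.849) or paired (14.6% called, lowest adjusted p 0.574), and none had an unadjusted p under 0.05 in either fit (14.5% and 33.1% of all genes). Pou5f1 was at 7.21, 5.16 and 5.07 in YFP- and 7.88, 4.75 and 5.26 in YFP+ cells. Nanog was at 8.61, 5.47 and 5.88 against 8.79, 4.79 and 6.11. Dppa4 was at 8.59, 4.88 and 4.76 against 9.08, 4.50 and 5.28, and Rhox5 at 9.29, 5.02 and 6.04 against 9.54, 5.02 and 5.51. In each of these 4 genes pair 1 was high in both fractions and pairs 2 and 3 were low in both. All 9 genes were higher in the positive array of pair 1, by 0.01 to 0.82. In pair 1, 8 of the 9 were above background in negative and 9 in positive cells, while pair 2 had 3 and 1, and pair 3 had 4 and 4.

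Other genes also differed between the positive arrays of this line. Pitx3-positive replicate 1 had a fibroblast and stromal list median of 7.70, against 5.17 and 5.12 in the other 2 positive arrays, and a cell cycle list median of 10.22, against 5.0 and 8.13. Its reporter RNA was at 9.97, against 11.12 and 10.98. Pitx3-positive replicate 2, the lowest of all 18 arrays for 7 of the 10 genes, had 1 of 9 cell cycle genes above background, where the other 17 arrays had 8 or 9. Their part in the levels of the pluripotency genes was not tested. In 5 of the 6 fractions replicate 1 had the highest median of the 9 genes, with Nurr1-positive cells the exception. The labels do not say whether lines share a number for a reason.

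The sorts were then compared with each other, since the reporters mark successive stages, though each in its own line. In Pitx3 pairs 2 and 3 at most 4 of the 9 genes were above background in either fraction. Most differences of those pairs were therefore not measured on both sides. The median difference was -2.38 in the Hes5 sort and 0.21 in the Pitx3 sort. The difference between the Pitx3 and Hes5 sorts was above 0 for all 9 genes, with a median of 2.37. None was called, unpaired (0.0553% of all genes called, 1 of the 9 with an unadjusted p under 0.05, against 7.81% of all genes) or paired (3.27% called, 7 of the 9 with an unadjusted p under 0.05, against 21.1%). Rhox5 came nearest, at 3.19 (SE 0.80 paired, paired adjusted p = 0.0646). It was called without Nurr1 pair 1 (adjusted p = 0.038, where 2.79% of all genes were called). Without Hes5 pair 2, 6 genes were called (Dppa4, Nanog, Pou5f1, Rhox5, Tdh and Utf1), where 5.18% of all genes were. The Nurr1 sort differed from the Hes5 sort by a median of 0.23 and the Pitx3 sort from the Nurr1 sort by 1.63, with no member called in either fit (0.0079% and 0% of all genes called unpaired, 0% and 0% paired). In the first of these, 0 of the 9 unpaired and 1 paired had an unadjusted p under 0.05, against 3.99% and 15.1% of all genes. In the second, 0 unpaired and 4 paired did (Nanog, Zfp42, Tdh and Dppa4), against 0.442% and 3.79%.

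Between lines, the means of most of these genes were ordered Hes5, Nurr1, Pitx3 in the negative fractions. Hes5-negative cells held the highest mean of the 6 fractions for 7 of the 9 genes, and Nurr1-negative cells for Zfp42 and Klf4. Pou5f1 averaged 8.62 ± 2.63 (SD, n = 3) in Hes5-negative, 7.10 ± 0.49 in Nurr1-negative, 6.26 ± 0.77 in Hes5-positive, 5.96 ± 1.68 in Pitx3-positive, 5.81 ± 1.21 in Pitx3-negative and 5.29 ± 0.23 in Nurr1-positive cells. Of these 5 steps only that from Nurr1-negative to Hes5-positive cells exceeded the larger SD of its 2 fractions. Dppa4 had the same order of fractions and the same single step. Tdh had such a step from Nurr1-negative to Pitx3-positive cells, and another between Hes5-positive and Nurr1-positive cells, where it was not above background in any array. The one such step of Nanog ran from Hes5-positive to Nurr1-positive and that of Zfp42 from Nurr1-positive to Hes5-positive cells. Nanog and Esrrb began with the same 2 fractions and also ended with Nurr1-positive cells. For Esrrb, Utf1 and Rhox5 no step between neighbours exceeded the larger SD. Hes5-negative replicate 2 decided the first step: without it Pou5f1 averaged 10.06 ± 1.21 (SD, n = 2) in Hes5-negative cells, and the step from there to Nurr1-negative cells exceeded the larger SD for Pou5f1, Nanog, Utf1, Tdh, Dppa4, Rhox5 and Esrrb. The order of the fractions was the same without that array for all 9 genes. Klf4 had another order than the rest, from 7.33 ± 0.38 in Nurr1-negative to 6.09 ± 0.42 in Hes5-positive cells, and its one such step was that between the 2 Hes5 fractions.

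Pitx3-negative cells were lower than Hes5-negative cells in 8 of the 9 genes, with a median of -2.31 where all genes had 0.03. None was called (0.0632% of all genes called), and 7 of the 9 had an unadjusted p under 0.05 (8.26% of all genes). The 2 negative fractions overlapped for all 9 genes (3.09% of all genes were lower in Pitx3-negative cells without overlap). Without Hes5-negative replicate 2, Dppa4, Pou5f1, Tdh and Utf1 were called in this comparison, where 4.94% of all genes were (2.85% as lower), and Utf1 was called lower in Nurr1-negative than in Hes5-negative cells, where 1.9% were. With all arrays the Nurr1-negative minus Hes5-negative median was -0.99, with 0 called (0.0553% of all genes) and 0 at an unadjusted p under 0.05 (6.49%). The Pitx3-negative minus Nurr1-negative median was -1.24, with 9 of 9 lower, 0 called (0.0158%) and 0 at an unadjusted p under 0.05 (3.73%). None of the 9 had separate groups there, against 5.38% of all genes with lower Pitx3-negative cells.

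Among the positive fractions the median differences were smaller in size. The median difference was -0.57 for Nurr1 minus Hes5 (0.419% of all genes called), 0.01 for Pitx3 minus Hes5 (4.31%) and 0.53 for Pitx3 minus Nurr1 (0.0158%), with none of the 9 called in any of them and 1, 1 and 0 at an unadjusted p under 0.05 (13.7%, 25.1% and 5.07% of all genes). In Nurr1 minus Hes5, 4 of the 9 (Pou5f1, Nanog, Utf1 and Esrrb) were lower without overlap, as were 11.7% of all genes. Pou5f1 and Utf1 were not above background in any Nurr1-positive array, and Utf1 was above background in only 1 Hes5-positive array. Klf4 gave the lowest adjusted p, at 0.95 higher in Pitx3-positive than in Hes5-positive cells (SE 0.40, adjusted p = 0.158). Its groups did not overlap, and the share of all genes separated in that direction was not counted. Each line was sorted and grown on its own, so line and any difference in culture cannot be told apart.

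Over the 18 arrays 8 of the 9 genes had levels that varied together and Klf4 stood apart. Pearson correlations among the 8 ran from 0.59 to 0.97 over 28 pairs of genes (Spearman 0.64 to 0.98). Pou5f1 correlated at 0.97 with Utf1 and with Dppa4 and at 0.94 with Nanog. Klf4 correlated with the other 8 at -0.28 to 0.21. The points share fractions, pairs and normalization, so these values are a description. The probes of a gene varied together: the second probes of Pou5f1 and Nanog correlated with the probe used at 0.99 and 0.97, the 2 other kept probes of Klf4 at 0.85 and 0.91, and those of Dppa4 at 0.92 and 0.86. The sizes of the differences did not always match. The other Dppa4 probes, above background in 4 and 3 arrays where the probe used was in 12, differed by -2.32 and -1.83 in the Hes5 sort and by -0.88 and -0.61 in the Nurr1 sort, against -3.13 and -2.18 for the probe used. The second Nanog probe differed by -1.49 in the Nurr1 sort, against -2.33. A second Esrrb probe was not above background in any array.

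**Figure D3:**
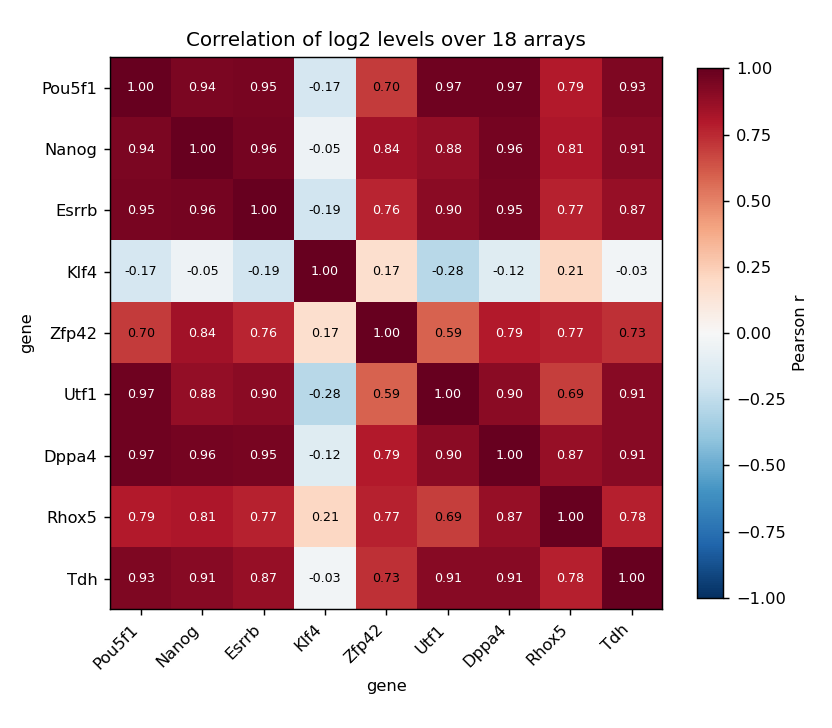
Pearson correlation (colour and printed value) of log2 levels over 18 arrays between the 9 tested genes (both axes). Klf4 lies between -0.28 and 0.21 with the rest, and the other 8 lie at 0.59 or more with each other.

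Among the tested genes that are not members and carry a gene symbol rather than a clone or locus name, the 8 whose levels were most like the mean standardized level of the 9 were Fbxo15 (Pearson r 0.99), Hspb1, Tex19.1 and Klf2 (each 0.97), Tfap2c and Esrp1 (each 0.96), and Cpn1 and Grb7 (each 0.95). Fbxo15 is an F-box gene long used as an ES cell reporter, Klf2 is a relative of Klf4, and Tex19.1 is expressed in germ cells and ES cells. Besides the members, of which Utf1 and Dppa4 were at 0.97, the 5 genes most like Pou5f1 were Cldn4 and Grb7 (each 0.97), and Nodal, Tfap2c and the gene listed as LEFTB (each 0.96).

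The other genes of the network followed the same arrays. Of 39 listed, 36 were in the deposited table and 27 were tested. In the Hes5 sort 26 of the 27 were lower in positive cells, with a median of -1.95, and none was called, unpaired or paired. In the Nurr1 sort 25 were lower with a median of -0.88 and none was called in either fit, and in the Pitx3 sort 13 were lower with a median of 0.01. Dnmt3l, a DNA methylation cofactor, differed by -3.0 in the Hes5 sort (SE 0.60 paired, paired adjusted p = 0.0525) and by -2.46 in the Nurr1 sort (SE 0.60 paired, paired adjusted p = 0.0781). Klf2 differed by -2.75 and Fbxo15 by -2.65 in the Hes5 sort, with paired adjusted p of 0.0987 and 0.0806. Dppa3, a maternal and germ cell factor, was not above background in any Hes5-positive array and at least 3.1-fold lower there (paired adjusted p = 0.108). Without Hes5 pair 2, 21 of the 27 were called lower and 0 higher in the Hes5 sort, where 4.69% of all genes were called lower. In the Nurr1 sort 5 were then called lower (Dnmt3l, Dppa5a, Esrp1, Nodal and Ooep) and 0 higher, where 1.01% of all genes were called lower.

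Sox2 and Klf5, which are also active outside pluripotent cells, were the 2 of the 27 genes called in the paired Pitx3 sort. Both were called lower, where 14.6% of all genes were called (8.52% as lower). Sox2, the partner of Oct4 that neural progenitors keep expressing, was at 9.14, 9.32 and 9.30 in Hes5-negative and 9.68, 9.58 and 9.69 in Hes5-positive cells. It was the one gene of the 27 that was higher in Hes5-positive cells, by 0.39 (SE 0.38 paired, paired adjusted p = 0.574). In the Pitx3 line it was at 8.98, 8.88 and 9.56 in negative and 8.52, 6.15 and 7.56 in positive cells, and was called lower in the paired fit (-1.73, SE 0.38, paired adjusted p = 0.0223). Klf5, a relative of Klf4, was the other call of the list there (-1.51, SE 0.42 paired, paired adjusted p = 0.0433). In the Hes5 and Nurr1 sorts Klf5 was lower in all 3 pairs, as most members were, with mean differences of -1.06 and -0.93 (paired adjusted p = 0.19 and 0.211). No test set either gene against the members. Both calls were lost without Pitx3 pair 2, whose positive array had 1 of 9 cell cycle genes above background (adjusted p = 0.156 for Sox2 and 0.261 for Klf5), and without Pitx3 pair 3 (0.135 and 0.189). Klf5 was also lost without Hes5 pair 3, Nurr1 pair 2 or Nurr1 pair 3 (0.0503 to 0.0714).

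**Figure D4:**
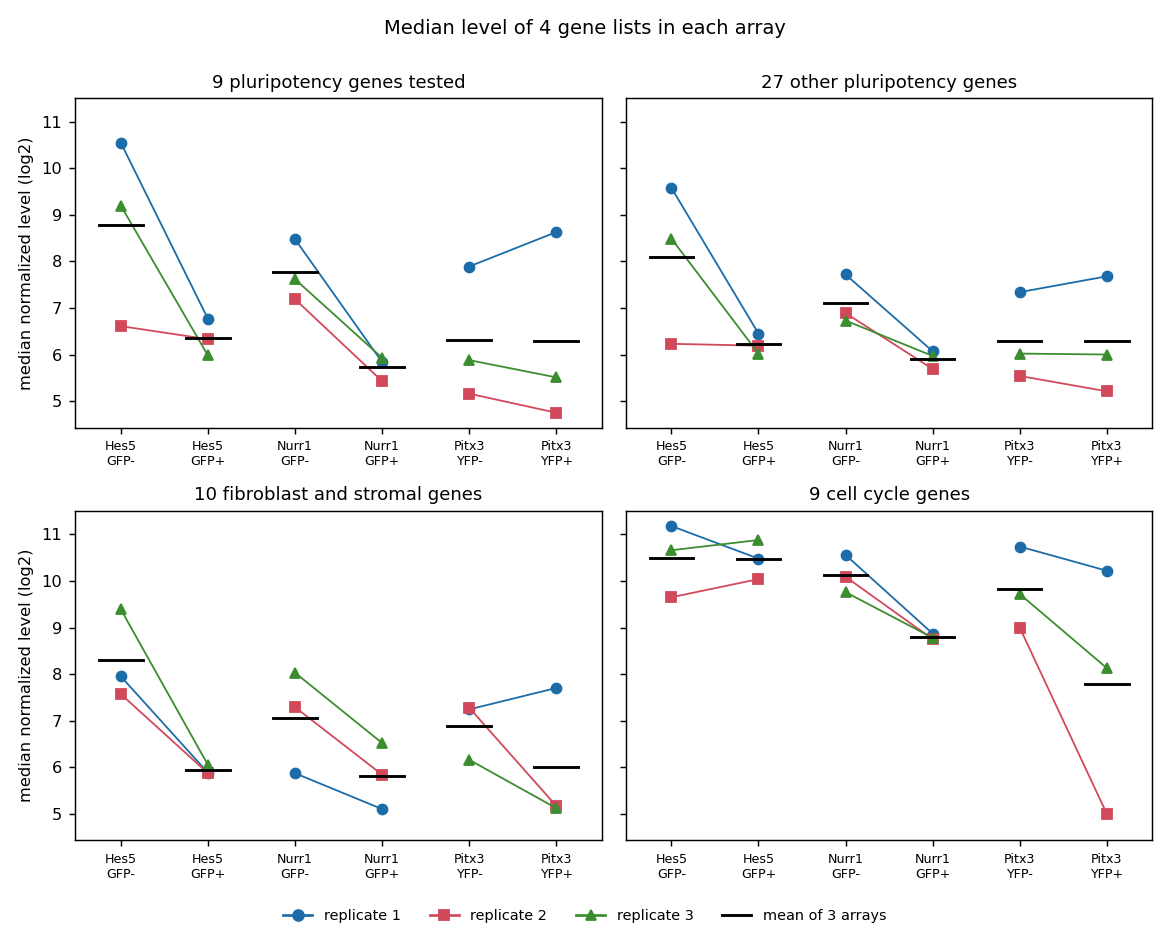
Median normalized level (log2, y axis) of the 9 tested pluripotency genes and of 3 other gene lists in each array of the 6 fractions (x axis). Lines join pairs and black bars are means of 3 arrays. The 27 other pluripotency genes follow the 9, with Hes5-negative replicates 1 and 3 at 9.58 and 8.49 and Hes5-positive arrays at 6.02 to 6.45. The stromal list is also low in Hes5-positive cells, at 5.87 to 6.05, and is not low in Hes5-negative replicate 2, at 7.57.

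Lists for other cell types were read beside the members. The lists share genes: Dppa3 of the germ cell list and Dnmt3b of the primed epiblast list are also among the other pluripotency genes above. Of 11 germ cell genes 4 were tested, and all 4 were lower in Hes5-positive and in Nurr1-positive cells, with medians of -1.86 and -1.26 and none called. Without Hes5 pair 2, Dazl, Dppa3 and Tfap2c were called lower in the paired Hes5 sort, where 4.69% of all genes were. Tfap2c was then also called lower in the paired Nurr1 sort (1.01% of all genes). Tfap2c, a germ cell factor that ES cells express too, differed by -2.27 in the Hes5 sort (paired adjusted p = 0.0752), and Kit, a receptor of germ cells and neurons, by -0.19 (0.68). Of 7 genes of the primed epiblast 4 were tested, with medians of -0.26, -0.29 and 0.32 in the Hes5, Nurr1 and Pitx3 sorts and none called. The de novo methyltransferase Dnmt3b differed by -1.68 in the Hes5 sort (paired adjusted p = 0.1), and Otx2 and Pou3f1, which midbrain cells also express, by -0.47 and -0.05. Without Hes5 pair 2, Dnmt3b was called lower in the paired Hes5 sort.

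Of 19 primitive streak and endoderm genes 12 were tested, and in the paired Hes5 sort Dab2 (-1.57, adjusted p = 0.0477) and Sox17 (adjusted p = 0.0386) were called lower and Lhx1 (1.83, 0.0436) higher. In the paired fit 1.24% of all genes were called in the Hes5 sort (0.616% as lower) and 14.6% in the Pitx3 sort (8.52% as lower). Sox17 was above background in 1 Hes5-negative array and no positive one, which leaves no fold. Lhx1 is also a gene of brain neurons. Foxa2, shared by endoderm and the midbrain floor plate, was called higher in the paired Pitx3 sort (0.94, adjusted p = 0.0198). The median of this list was 5.77, 6.98 and 7.67 in Nurr1-positive replicates 1 to 3, where Rhox5 stood at 6.66, 8.02 and 9.93. In the Nurr1-negative ones the median was 5.69, 6.46 and 7.60, and Rhox5 stood at 9.46, 8.30 and 9.72. Of 10 trophoblast genes 1 was tested, Eomes, and it was not called in any sort. Of 12 fibroblast and stromal genes 10 were tested, and 9 were lower in Hes5-positive cells (median -1.81), with Lum, Tagln and Tgfbi called in the paired fit. Their list median in Hes5-negative arrays was 7.95, 7.57 and 9.39, against 5.88, 5.87 and 6.05 in positive arrays, and in pair 2 the median of the 9 pluripotency genes was 6.61 in the negative and 6.33 in the positive array. In the Nurr1 sort all 10 were lower with none called (median -0.91), and in the Pitx3 sort all 10 were lower (median -0.96), with Dcn and Pdgfrb called in the paired fit. Each call of a gene on these lists in the paired Hes5 sort with all pairs was lost without Hes5 pair 1 and without pair 3, among other pairs, and each one in the paired Pitx3 sort without Pitx3 pair 2 and without pair 3. Calls were gained without Hes5 pair 2. In the paired Hes5 sort Hhex and T of the endoderm list and Thy1 of the stromal list were then also called lower, where 4.69% of all genes were. The part of any of these cell types in the levels of the pluripotency genes was not tested.

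Neural progenitor genes (8 of 10 tested) had medians of 0.74, -0.75 and -1.55 in the Hes5, Nurr1 and Pitx3 sorts, with 0, 0 and 6 called lower in the paired fit and none higher. Of all genes, 1.24%, 0.774% and 14.6% were called in these sorts in that fit (0.616%, 0.119% and 8.52% as lower). Neuronal genes (8 of 12 tested) had medians of 0.31, 1.25 and 0.89, with Tubb3 called higher in the paired Pitx3 sort. Cell cycle genes (9 of 12 tested) had medians of 0.13, -1.21 and -2.0, and 8 of the 9 were called lower in the paired Pitx3 sort. Each of these calls in the Pitx3 sort was lost without Pitx3 pair 2 and without pair 3. Without Hes5 pair 2, Hes5 and Elavl4 were called higher in the paired Hes5 sort, where 8.94% of all genes were called in either direction. In the Pitx3 sort, where all 9 cell cycle genes tested were lower in positive cells, the 9 pluripotency genes had a median of 0.21.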

How the data were processed

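RNA of 18 sorted cell samples was measured on Illumina mouse BeadArrays. Per the file headers, the deposited scanner values are, for each of 45281 probes, the average intensity of its beads on a linear scale, a detection p-value (in steps that match 936 control bead types) and the count of beads (at least 11). The deposited series values are log2 intensity per gene for 31441 genes, not normalized between arrays. The submitters' processing notes mention GenomeStudio and Partek without versions. The spread between beads (18 columns) was not used here.

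Scanner probes carry no names. Each gene was matched to the 1, 2 or 3 probes, and for the genes named here also 4, whose mean intensity equals its deposited log2 value in all 18 arrays, within 1e-05 under a log2 value of 10 and 6e-05 from 10 (30336 genes, 0 ambiguous, 0 of 100 shuffled value sets matched). Older symbols were updated through RefSeq's table of build GRCm38.p6 (13415 genes matched, 5593 more through a synonym, 12433 kept as deposited).

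Intensities were background-corrected, quantile normalized and log2-transformed with neqc (offset 16) in limma 3.58.1 under R 4.3.3, with files read by data.table version 1.17.8. Probes with a detection p-value under 0.01 in at least 3 arrays were kept (18737, of which 2482 matched no gene), and the brightest kept probe stood for its gene (12657 genes). Two-sided tests came from lmFit and eBayes on 6 group means (12 residual degrees of freedom). The paired fit took same-numbered arrays of a line as a block (6 residual degrees of freedom). The labels do not state the pairing. Deviations from the group means correlated at 0.44 to 0.77 between same-numbered positive and negative arrays in all 9 pairs, and at -0.64 to 0.17 for different numbers. Deviations of 3 arrays cancel within a group, so the second range is not independent of the first. The pairing was taken from the same data as the calls. Replicates may be technical, so p-values cover only the spread seen between arrays, and 3 arrays a group limit the precision. Where a probe was not above background in any array of 1 group, a fold is a bound against the lowest signal above background, or against the probe's own level where higher. The fit was tested on simulated data with known changes.

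The members, gene lists, tests and alternatives were chosen with earlier results of these data known. The rule for named genes takes the 10 members in every comparison, up to 4 genes of each other list by size of difference, the genes called in a list, and the 8 and 5 most correlated genes. Matching and motif searches used Python 3.11.15, numpy 2.4.6, pandas 2.3.3 and numba 0.67.0, and plots matplotlib 3.10.9. Alternatives were the filter, background correction, the deposited values, the mean of a gene's kept probes, each comparison's groups alone, the block, and leaving out each array or pair.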

Additional observations from a re-analysis of the deposited data

How the results depend on the processing

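No member was called in the 12 unpaired comparisons without the filter on dim probes (30336 genes, 10 members), with a filter of 6 arrays (11670 genes, 8 members), without background correction, from the deposited values as given or quantile normalized, from the mean of a gene's kept probes, or with the compared groups alone. The replicate block moved the Hes5 sort from 0 to 1 member called and changed no other call of a member in a sort or a difference between sorts. Comparisons between lines cannot take that block, and with it as a random effect, an alternative chosen after seeing the data, 0 members were called. Leaving out 1 array at a time gave 0 to 2 members called in the Hes5 sort, 0 to 1 in Nurr1-negative minus Hes5-negative cells and 0 to 4 in Pitx3-negative minus Hes5-negative cells, and 0 in the other 9 comparisons. The highest of each came without Hes5-negative replicate 2. Leaving out 1 pair in the paired fit gave 0 to 8 members called in the Hes5 sort, 0 to 6 in the Nurr1 sort and in the Pitx3 sort minus the Hes5 sort, and 0 in the Pitx3 sort and in the other 2 differences. Members of the Hes5 sort kept their sign in all 314 values under the alternatives, 2 of 314 changed sign in the Nurr1 sort and 25 of 314 in the Pitx3 sort. Of the differences between sorts, 36 of 314 changed sign in Nurr1 minus Hes5, 4 in Pitx3 minus Nurr1 and 0 in Pitx3 minus Hes5. None of the values that changed sign was called. Counts over all genes moved more. Over the 7 settings without a block and with all arrays they ran from 0 to 2 in the Hes5 sort, 0 to 3 in the Nurr1 sort and 2 to 69 in the Pitx3 sort, against 2, 3 and 56, and 157, 98 and 1847 with the block. For Pitx3-positive minus Hes5-positive cells they ran from 4 to 609 against 545, and for Nurr1-positive minus Hes5-positive cells from 8 to 71 against 53. For Nurr1-negative and Pitx3-negative minus Hes5-negative cells they ran from 1 to 7 against 7 and from 1 to 8 against 8. The cause was not tested. Chips could not be used as a block, since the headers give none. Of the 9 members tested, Utf1 and Tdh were above background in 6 and 5 of 18 arrays, which limits their differences to bounds in several fractions.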
